A study of Caenorhabditis elegans with 24 samples.

Results

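The unc-1(vlt10) and nhr-1(vlt16) single mutants of Caenorhabditis elegans were compared directly, and each gene that differed was placed by the direction in which each lesion had moved it from the parental 40Q strain. The direct comparison used 12 of the 24 libraries of the series, 6 of each single mutant, and the 6 libraries of 40Q and the 6 of the double mutant served to place the levels. Of 46778 genes in the count table, the 14290 with at least 10 counts in at least 6 of the 12 libraries were tested. Every library came from pooled young adults grown at 20 °C, and all 4 genotypes carried the 40Q::YFP transgene rmIs133, in which the unc-54 promoter drives a stretch of 40 glutamines fused to YFP in body wall muscle. 40Q (strain AM141) carried the transgene alone. The unc-1(vlt10) strain (RVM10) carried in addition a premature stop in unc-1 that came from chemical mutagenesis, and the nhr-1(vlt16) strain (RVM293) carried a stop knocked into nhr-1 by CRISPR to mimic the n6242 allele. The double mutant (RVM294) carried both. Each genotype was 1 strain, both genes and the transgene lie on chromosome X, and differences between genotypes cannot be told apart from other differences between those strains. The sample names of 40Q begin with A and those of all mutants with R, which are also the first letters of the strain names, and the labels give no batch. Were these letters to mark a batch, it could not be told apart from genotype in comparisons with 40Q, on which every opposite or same-direction class below rests. The direct comparison sets only samples named with R against each other. The labels call the 6 samples of a genotype biological replicates.

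UNC-1 is a stomatin-like membrane protein of neurons that acts at electrical synapses with innexin gap junction proteins. NHR-1 is a nuclear hormone receptor. The study links both to 1 route by which neurons act on protein aggregation in muscle. In it UNC-1 acts on signalling from the sulphotransferase SSU-1 in the ASJ neurons, and a hormone that was not identified is proposed to reach NHR-1 in muscle. The direct comparison asks which genes the lesions in UNC-1 and NHR-1 moved to opposite sides of the parental level.

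The targeted genes were checked in every library first. The unc-1 transcript had a lowest, median and highest level of 6.55, 8.17 and 9.52 CPM (counts normalised to library size) in 40Q, then 0.654, 1.13 and 1.46 CPM in unc-1(vlt10), and 5.48, 6.27 and 7.45 CPM in nhr-1(vlt16). The nhr-1 transcript stood at 25.4, 29 and 30 CPM in 40Q, then 22.8, 25.4 and 30.5 CPM in unc-1(vlt10), and 11.3, 15.1 and 16.4 CPM in nhr-1(vlt16). Each transcript was lowest in the strain labelled as its mutant and in the double mutant, without overlap, and no library went against its label. Libraries held between 19098458 and 26338834 counts in unc-1(vlt10) and between 20128600 and 22745709 in nhr-1(vlt16). In 40Q they held between 19599153 and 23481210 counts, and in the double mutant between 26646628 and 30467364. Each double mutant library thus held more counts than any other library, and the part of this depth in comparisons with the double mutant was not tested. The first principal component held 49.4% of the variance of the most variable genes and separated the unc-1(vlt10) libraries (28.6 to 33.3) from those of nhr-1(vlt16) (-14.5 to -11.2).

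In the direct comparison 788 genes were called, which is 5.51% of those tested, where called means an adjusted p below 0.05 (edgeR quasi-likelihood test, Benjamini-Hochberg over all genes tested) and a fold change above 2. Of these, 432 were higher in unc-1(vlt10) (3.02%) and 356 were lower (2.49%). The libraries of the 2 mutants did not overlap at 708 of the 788, against 23.7% of all genes tested. By the adjusted p alone 5666 genes differed, most by little, since the median absolute log2 fold change of all genes was 0.15. Against 40Q, 803 genes were called in unc-1(vlt10) (5.62%) and 334 in nhr-1(vlt16) (2.34%), and by the adjusted p alone 49.5% and 43.7% of genes differed. Both of these comparisons share the 40Q libraries, so their values are given side by side and their overlap was not tested.

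The 788 genes fell into classes by their adjusted p against 40Q. In 271 genes (34.4%) the lesions moved the gene in opposite directions, in 332 (42.1%) only unc-1(vlt10) differed from 40Q, in 95 (12.1%) only nhr-1(vlt16) did, in 75 both moved the same way by different amounts and in 15 neither passed. Opposite movement at more than 2-fold apart was thus found for 1.9% of the genes tested. Without the fold requirement 624 genes moved in opposite directions and 3428 in the same direction, 1835 up in both and 1593 down in both. When each lesion had to move the gene more than 2-fold, 16 opposite genes were left, 14 of them higher in unc-1(vlt10). The rule fixes the direct difference of the opposite genes once both directions are set, so the direct values below describe them and are no further evidence.

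**Figure D1:**
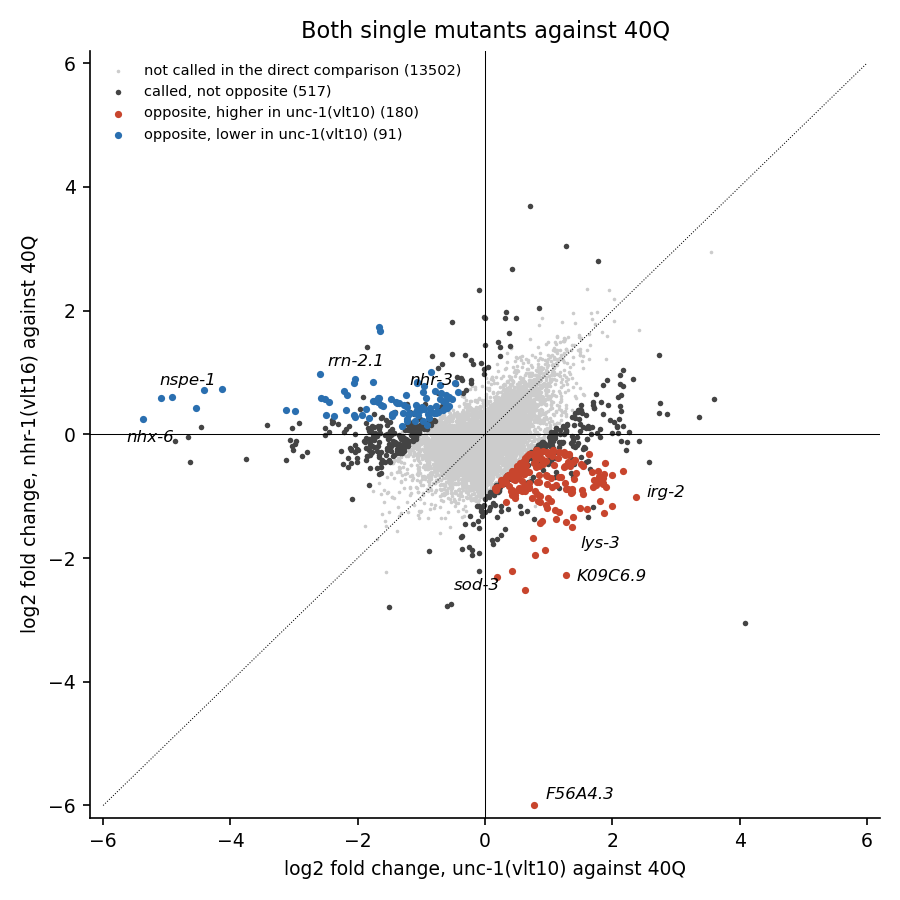
Log2 fold change against 40Q in unc-1(vlt10) (x axis) and in nhr-1(vlt16) (y axis) for the 14290 genes tested, 1 point per gene, with the 271 opposite genes in red and blue, other genes called in the direct comparison in dark grey and the rest in light grey. F56A4.3, which had no count in any nhr-1(vlt16) library, is drawn at the lower edge, and most genes lie between the lower left and the upper right, where both changes have the same sign.

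Of the 271 opposite genes, 180 were higher in unc-1(vlt10) and lower in nhr-1(vlt16) than in 40Q, and 91 were the reverse. The 180 had a median log2 fold change against 40Q of 0.84 in unc-1(vlt10) and -0.69 in nhr-1(vlt16), with the larger change in unc-1(vlt10) for 108 and in nhr-1(vlt16) for 72. The 91 had medians of -1.23 and 0.47, and 81 of them changed more in unc-1(vlt10). The first group was thus moved by similar amounts on both sides and the second mostly by the unc-1 lesion. At 100 of the 271 every unc-1(vlt10) library lay on one side of all 40Q libraries and every nhr-1(vlt16) library on the other, against 1.32% of all genes tested. At the edge of the 2-fold rule, gln-3 had a direct log2 fold change of 1.0006 and nlp-28, just outside, 0.9987. Of the genes tested, 23 passed the count minimum through unc-1(vlt10) alone and 25 through nhr-1(vlt16) alone, and since 47 of these were called and 11 were opposite, they add nothing to the counts as evidence. Among genes whose levels are given below, C23G10.11, nas-3, ugt-63 and ugt-35 passed through nhr-1(vlt16) alone. F56A4.3 and C54F6.15 passed through unc-1(vlt10) alone.

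Genes of infection response and lysozymes included lys-3, irg-2 and irg-1, which were raised in unc-1(vlt10) and lowered in nhr-1(vlt16). lys-3, which encodes a lysozyme (WBcel235 V:10282100-10283544), stood at a lowest, median and highest level of 1.16, 2.06 and 3.42 CPM in 40Q, then 4.81, 5.92 and 6.95 CPM in unc-1(vlt10), and 0.295, 0.843 and 1.09 CPM in nhr-1(vlt16). The 3 ranges did not overlap. The log2 fold change against 40Q was 1.37 ± 0.20 (SE, n = 6 per genotype, edgeR adjusted p = 1.5e-06) in unc-1(vlt10) and -1.50 ± 0.26 (adjusted p = 3.6e-05) in nhr-1(vlt16). irg-2, named as an infection response gene (V:4042181-4043601), ranged from 6.88 to 15.2 CPM in 40Q, from 48.3 to 66.4 in unc-1(vlt10) and from 3.43 to 7.94 in nhr-1(vlt16), a direct log2 difference of 3.38 ± 0.18 and a fold of 10.4. Its 40Q and nhr-1(vlt16) libraries overlapped, although the change of -1.01 against 40Q passed the edgeR test (adjusted p = 0.00016). irg-1, a further infection response gene, differed directly by 2.34 ± 0.15 on the log2 scale. It lay at 6.62 to 8.82 CPM in unc-1(vlt10), 1.1 to 2.04 CPM in nhr-1(vlt16) and 1.79 to 2.85 CPM in 40Q. Its 40Q and nhr-1(vlt16) libraries thus also overlapped. The list of lysozymes, saposins and antimicrobial peptides, which also takes in the irg genes, had 61 tested members. Of these, 9 were called higher in unc-1(vlt10) than in nhr-1(vlt16) (14.8%, background 3.02%) and 0 lower. Of the 9, 3 were opposite, 4.92% of the list against 1.9% of all genes. The remaining 6 were ilys-3 and 5 fipr genes, none of them opposite. Of the fipr genes, fipr-22, fipr-23, fipr-24 and fipr-26 are counted again below among genes that the study took as regulated by ssu-1. Beyond these calls the list did not move as 1: 18 members were lower in unc-1(vlt10) by the adjusted p alone (19% of all genes were), 25 fell against 40Q in both mutants (11.1% of all genes did), and the median direct log2 fold change was 0.00, the same as that of all genes tested.

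Next to irg-2 lies a run of genes with the same pattern. Within 18.6 kb of chromosome V (V:4025047-4043601), 5 of the 6 tested genes were opposite and higher in unc-1(vlt10), namely K09D9.1, C49G7.7, C49G7.12, C49G7.10 and irg-2. C49G7.10 ranged from 16.8 to 38.2 CPM in 40Q, from 71.5 to 79.0 CPM in unc-1(vlt10) and from 8.96 to 13.2 CPM in nhr-1(vlt16). K09D9.1 ranged from 5.78 to 17.5, from 27.3 to 30.7 and from 3.26 to 5.51 CPM in the same order. For both genes the nhr-1(vlt16), 40Q and unc-1(vlt10) libraries formed 3 separate steps. The gene of the run that did not follow was cyp-35A4, a cytochrome P450 gene that fell in both mutants, by 2.1 on the log2 scale in unc-1(vlt10) and by 1.04 in nhr-1(vlt16). A second run, Y58A7A.3, Y58A7A.4 and Y58A7A.5 (V:5077854-5086969), held no other tested gene. Y58A7A.5 had a lowest, median and highest level of 10.4, 15.8 and 28.9 CPM in 40Q, then 48.8, 51.7 and 54.7 CPM in unc-1(vlt10), and 4.83, 8 and 8.21 CPM in nhr-1(vlt16).

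The 40Q libraries were themselves spread widely at these genes. The highest 40Q library exceeded the lowest 4.60-fold at C49G7.7, 3.03-fold at K09D9.1, 2.96-fold at lys-3, 2.78-fold at Y58A7A.5 and 2.27-fold at C49G7.10, with replicate 2 lowest in each and replicate 4 or 6 highest. Among unc-1(vlt10) libraries the same ratio was 1.28, 1.12, 1.45, 1.12 and 1.1. The part of this 40Q spread in the results was not tested beyond leaving out each library in turn, under which all 5 genes stayed opposite.

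Other genes of the same pattern came from several families. K09C6.9 (V:853436-855066) differed directly by 11.7-fold (log2 3.54 ± 0.13), at 4.08 to 5.92 CPM in 40Q, 10.8 to 12.1 CPM in unc-1(vlt10) and 0.640 to 1.23 CPM in nhr-1(vlt16). tsp-2, a tetraspanin membrane protein (III:8236928-8237935), ranged from 3.31 to 8.45 CPM in 40Q, from 13.7 to 17.8 CPM in unc-1(vlt10) and from 2.07 to 2.67 CPM in nhr-1(vlt16), and its neighbour tsp-1 was also opposite. F13A7.11 and F14F8.8, both on chromosome V, differed directly by 2.42 and 2.49 on the log2 scale, again with no overlap among the 3 genotypes. sod-3, which encodes a mitochondrial manganese superoxide dismutase and is a classic target of the insulin pathway factor DAF-16 (X:17092753-17094306), was moved mostly by the nhr-1 lesion. Its levels were 3.94 to 4.77 CPM in 40Q, 5.13 to 6.93 CPM in unc-1(vlt10) and 0.492 to 1.28 CPM in nhr-1(vlt16), a log2 change of 0.43 ± 0.12 in unc-1(vlt10) and -2.22 ± 0.15 in nhr-1(vlt16). sod-3 was the only opposite gene over 2-fold apart among 9 tested metallothioneins, superoxide dismutases and catalases (11.1%, against 1.9% of all genes). It lies within 1 Mb of nhr-1, where 10 of 119 tested genes were called and 3 were opposite. Over all genes tested 5.51% were called and 1.9% were opposite.

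**Figure D2:**
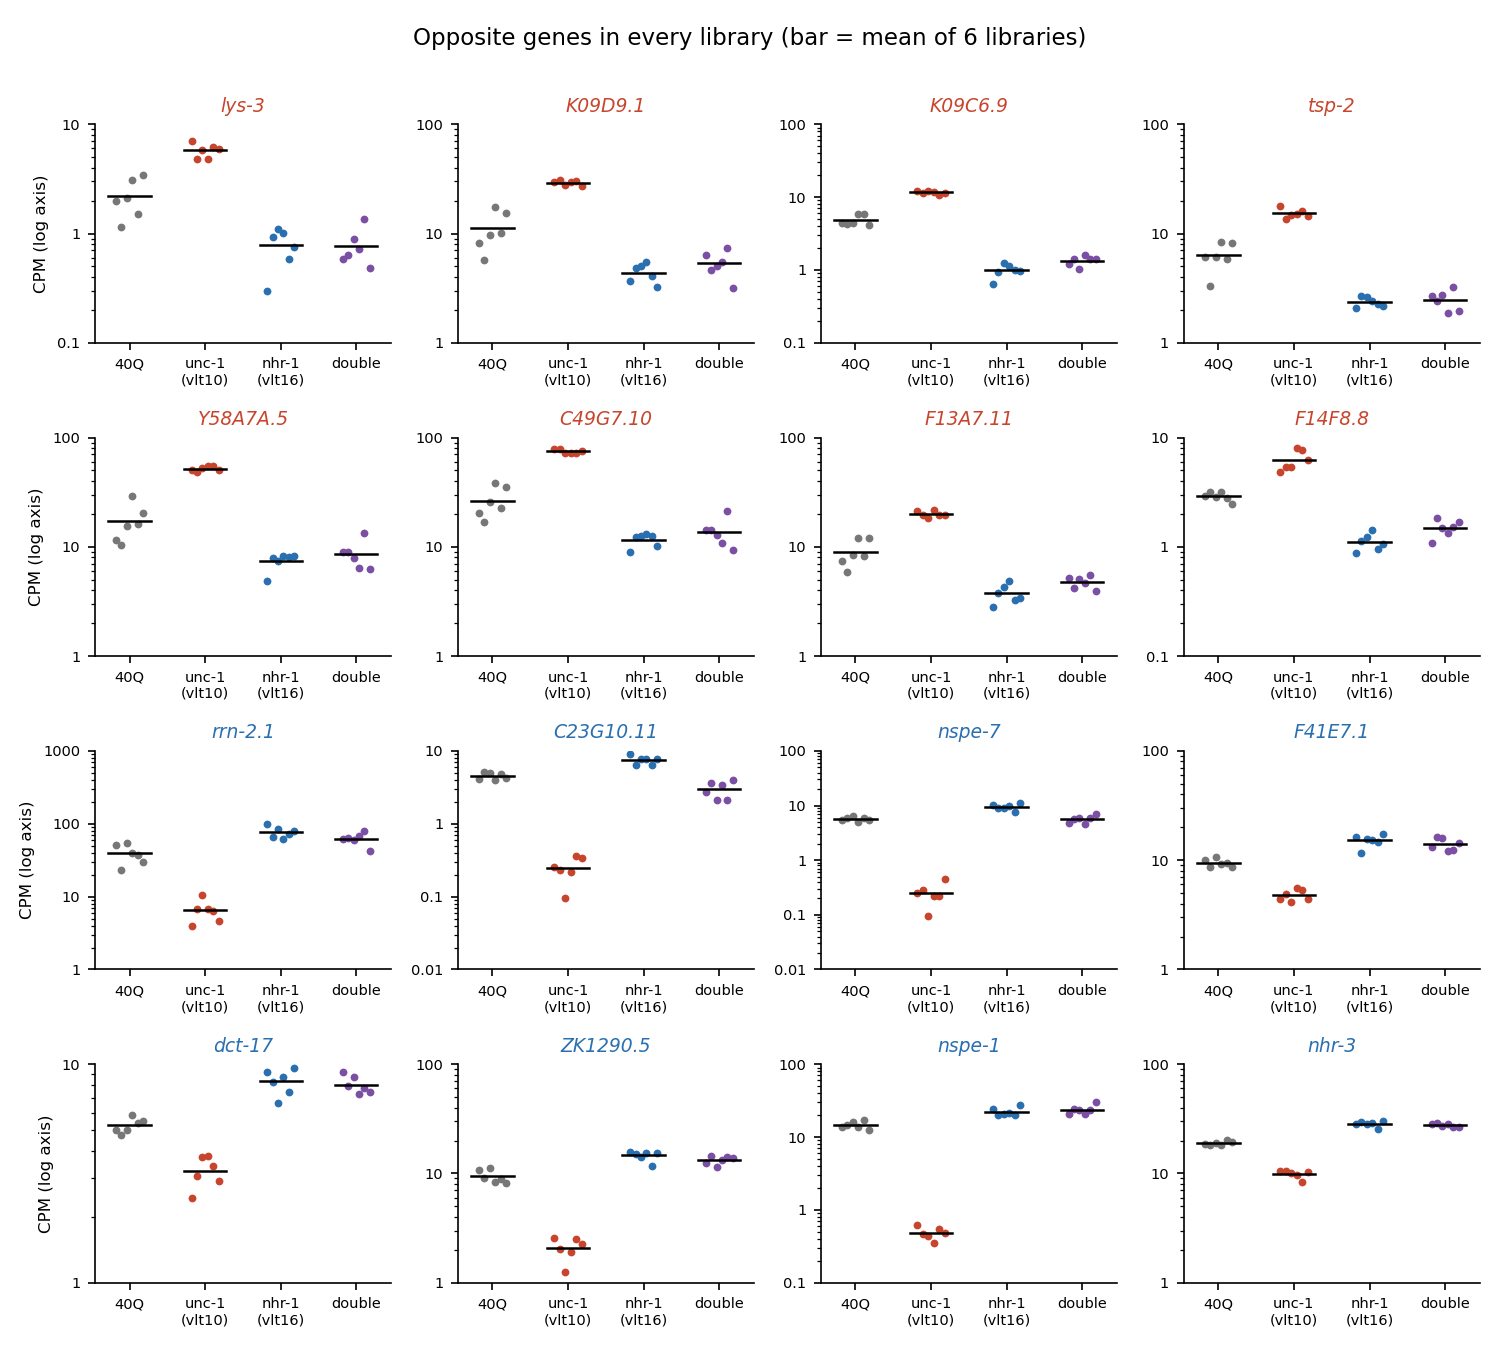
CPM on a log axis in each of the 24 libraries for the 8 opposite genes higher in unc-1(vlt10) (red titles) and the 8 lower in unc-1(vlt10) (blue titles) with the largest smaller change, 1 point per library and a bar at the mean of 6. In every panel the 40Q libraries lie between the unc-1(vlt10) and nhr-1(vlt16) libraries, and the double mutant lies near nhr-1(vlt16) except at C23G10.11 and nspe-7.

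Genes lowered by the unc-1 lesion and raised by the nhr-1 lesion included a small peptide family. nspe-1 (II:12620649-12620864), a nematode-specific peptide gene, stood at a lowest, median and highest level of 12.4, 14.3 and 17.3 CPM in 40Q, then 0.351, 0.477 and 0.614 CPM in unc-1(vlt10), and 19.8, 20.9 and 27.7 CPM in nhr-1(vlt16). The direct difference was 46.0-fold, and the log2 changes against 40Q were -4.92 ± 0.16 in unc-1(vlt10) and 0.60 ± 0.09 in nhr-1(vlt16). nspe-7 and nspe-2 lie beside it and behaved alike, at 0.0966 to 0.449 and 0.0511 to 0.467 CPM in unc-1(vlt10) against 7.63 to 11.2 and 6.95 to 9.6 CPM in nhr-1(vlt16). These genes are close copies, and reads may have been split or lost among them in the authors' counting. Of 29 tested nematode-specific peptide genes, 6 were called lower in unc-1(vlt10) and 2 higher (27.6%, against 5.51% of all genes). Of the list 3 were opposite (10.3%, against 1.9% of all genes). The list as a whole did not share the upward step in nhr-1(vlt16). Its median log2 change against 40Q was -0.95 in unc-1(vlt10) and -0.58 in nhr-1(vlt16). By the adjusted p 12 members fell in both, where 11.1% of all genes did.

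nhr-3, a nuclear hormone receptor gene on chromosome X (X:14558504-14561432), had the smallest SE of the 8 opposite genes named in this direction. Its lowest, median and highest levels were 18.1, 18.9 and 20.3 CPM in 40Q, then 8.32, 10.2 and 10.6 CPM in unc-1(vlt10), and 25.8, 28.7 and 30.3 CPM in nhr-1(vlt16). The changes against 40Q were -0.93 ± 0.06 and 0.59 ± 0.05 (edgeR adjusted p = 8.5e-15 and 3.0e-10). F41E7.1, dct-17 and ZK1290.5 also lay on separate sides of 40Q in every library, with direct log2 differences of -1.66, -1.36 and -2.80. C23G10.11 fell to 0.0966 to 0.360 CPM in unc-1(vlt10) from 3.98 to 5.20 CPM in 40Q and reached 6.32 to 9.01 CPM in nhr-1(vlt16). rrn-2.1 headed the list by its smaller change, at 23.2 to 54.3 CPM in 40Q, 3.99 to 10.6 CPM in unc-1(vlt10) and 62.5 to 100.2 CPM in nhr-1(vlt16). It is a ribosomal RNA gene with neighbouring rrn-1.1 also opposite, and since libraries were made from RNA enriched with oligo(dT), its counts measure ribosomal RNA carried into the libraries as well as its level.

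Among genes whose log2 CPM averaged 1 or more over the 12 libraries, the 4 largest direct differences lower in unc-1(vlt10) were those of nhx-6, nspe-1, F26A1.8 and T06D8.10. nhx-6, a sodium-proton exchanger gene (II:1670829-1674401), stood at 11.7 to 13.7 CPM in 40Q, 0.131 to 0.560 CPM in unc-1(vlt10) and 14 to 17.5 CPM in nhr-1(vlt16), a direct fold of 48.9. Its rise in nhr-1(vlt16) was 0.24 ± 0.09 (edgeR adjusted p = 0.033). F26A1.8 fell from 74.6 to 98.6 CPM in 40Q to 2.39 to 3.64 CPM in unc-1(vlt10) and stood at 76.7 to 86.5 CPM in nhr-1(vlt16), where the change of -0.11 did not pass. T06D8.10 likewise differed from 40Q in unc-1(vlt10) alone. On the other side, Y6E2A.4 was higher in unc-1(vlt10) (9.20 to 15.7 CPM) than in 40Q (0.631 to 1.64 CPM) and nhr-1(vlt16) (0.886 to 2.34 CPM), and its change in nhr-1(vlt16) of 0.28 ± 0.25 did not pass (edgeR adjusted p = 0.39).

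Genes of fat synthesis differed between the mutants without moving in opposite directions. Of 21 tested genes of fatty acid synthesis, elongation and desaturation, 5 were called lower in unc-1(vlt10) than in nhr-1(vlt16) and 0 higher. These were 23.8% of the list, against 5.51% of all genes (2.49% lower and 3.02% higher). None was opposite, and with 1.9% of all genes opposite a list of this size may hold none. By the adjusted p 15 fell against 40Q in both mutants, where 11.1% of all genes did. The 5 were elo-6 and elo-5, elongases that make branched-chain fatty acids, acs-1, an acyl-CoA synthetase that acts on them, elo-2, an elongase of palmitic acid, and fat-5, a delta-9 desaturase of palmitic acid. elo-6 had a lowest, median and highest level of 37.1, 45.2 and 49.7 CPM in unc-1(vlt10) and of 184, 205 and 229 CPM in nhr-1(vlt16), where 40Q had 173, 206 and 220 CPM. Levels in nhr-1(vlt16) and 40Q thus overlapped, and those in unc-1(vlt10) were below both throughout. The direct log2 fold changes were -2.24 ± 0.07 for elo-6, -2.04 ± 0.11 for fat-5, -1.79 ± 0.07 for elo-5, -1.25 ± 0.06 for elo-2 and -1.06 ± 0.05 for acs-1. fat-7, a delta-9 desaturase of stearic acid, fell more than 2-fold in both. It stood at 19.9, 22.7 and 24.4 CPM in 40Q, then 6.16, 7.68 and 9.16 CPM in unc-1(vlt10), and 6.93, 8.12 and 9.31 CPM in nhr-1(vlt16). The direct difference was -0.08 with a 95% interval from -0.24 to 0.09 (edgeR adjusted p = 0.50), so a difference of up to 0.24 on the log2 scale remains possible. Its close copy fat-6 fell by 0.62 and 0.18, and reads shared between them may have been lost in counting.

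**Figure D3:**
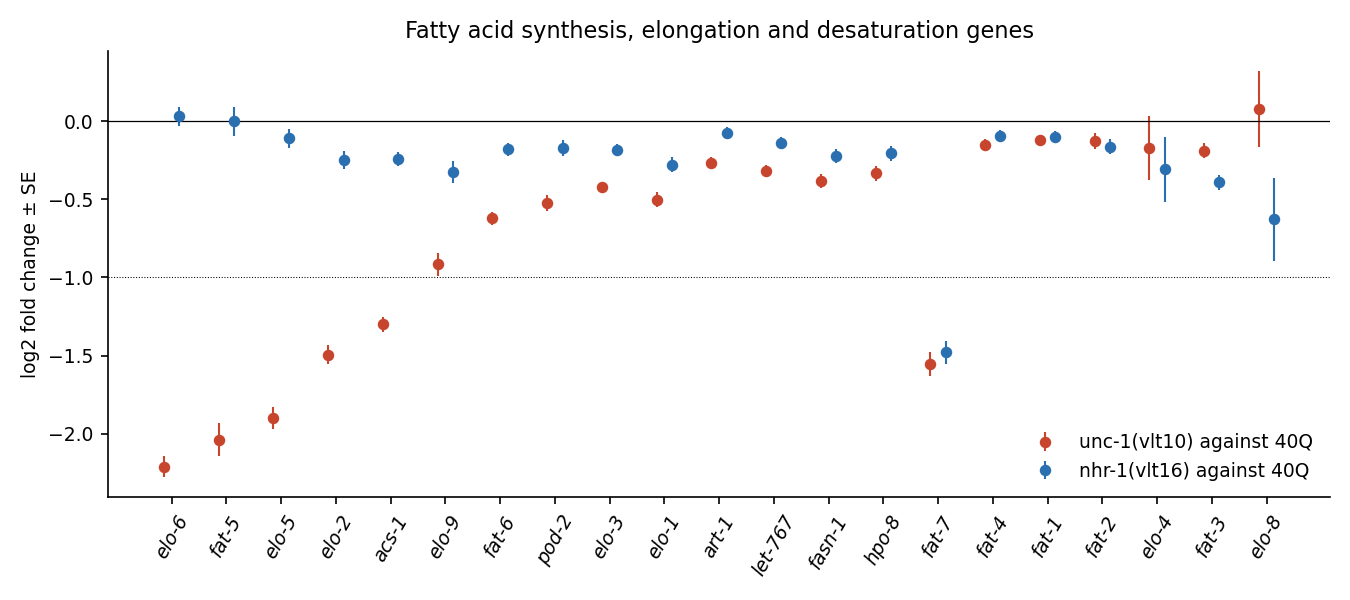
Log2 fold change against 40Q with SE for the 21 tested genes of fatty acid synthesis, elongation and desaturation in unc-1(vlt10) (red) and nhr-1(vlt16) (blue), in the order of the direct difference. The 5 genes at the left fell more than 2-fold further in unc-1(vlt10), fat-7 fell more than 2-fold in both, and the dotted line marks a 2-fold fall.

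Fatty acid breakdown did hold opposite genes. Of 61 tested members, the direct comparison called 4 with the higher and 3 with the lower level in unc-1(vlt10) (11.5% in all, against 5.51% of all genes). Of the list 3 were opposite, 4.92% against 1.9% of all genes. hacd-1, a hydroxyacyl-CoA dehydrogenase of beta-oxidation (V:1460369-1461613), stood at 33.1 to 46.5 CPM in 40Q, 7.60 to 13.3 CPM in unc-1(vlt10) and 45.8 to 57.7 CPM in nhr-1(vlt16), so that the nhr-1(vlt16) libraries overlapped the top of the 40Q range. Its changes were -1.94 ± 0.10 and 0.32 ± 0.08. acox-1.5, a peroxisomal acyl-CoA oxidase, ranged from 21.6 to 26.6 CPM in unc-1(vlt10) and from 53.7 to 70.6 CPM in nhr-1(vlt16), with 40Q at 49.8 to 57.6 CPM. cpt-4, of the carnitine palmitoyltransferase family, went the other way, at 31.7 to 45.1 CPM in 40Q, 39.6 to 50 CPM in unc-1(vlt10) and 20.6 to 23.3 CPM in nhr-1(vlt16). Its unc-1(vlt10) libraries overlapped those of 40Q. The log2 changes of cpt-4 against 40Q were 0.15 in unc-1(vlt10) and -0.87 in nhr-1(vlt16). far-7, a fatty acid and retinol binding protein, was higher in unc-1(vlt10) (22.7 to 30.1 CPM) and lower in nhr-1(vlt16) (5.46 to 9.26 CPM) than in 40Q (11.4 to 15.6 CPM).

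Regulators of fat metabolism differed by less than 2-fold. None of 18 tested was called in the direct comparison, where 5.51% of all genes were. hlh-30, a lysosome and fat regulator related to TFEB, was moved in opposite directions by the adjusted p, by 0.24 and -0.18 on the log2 scale. The largest direct differences were those of nhr-68 (-0.62), pqm-1 (-0.58), mxl-3 (-0.52), hlh-30 (0.42) and nhr-80 (-0.40). For sbp-1, the SREBP homologue, it was 0.20, and for nhr-49, mdt-15 and skn-1 the difference did not pass (0.02, -0.04 and -0.02).

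Genes of sulphated steroid and dafachronic acid metabolism were also not called, 0 of 11 tested in either direction, and 0 were opposite. Over all genes tested 5.51% were called and 1.9% were opposite. daf-36, the oxygenase that starts dafachronic acid synthesis, differed directly by -0.85 ± 0.07, at 7.8 to 11 against 16.8 to 18.6 CPM with no overlap. daf-9, the cytochrome P450 of the last step, differed by -0.75 ± 0.17, at 0.823 to 2.25 CPM in unc-1(vlt10), 2.30 to 2.96 CPM in nhr-1(vlt16) and 1.65 to 2.36 CPM in 40Q. Its rise in nhr-1(vlt16) passed (0.44, edgeR adjusted p = 0.030) and its change in unc-1(vlt10) did not (-0.31, adjusted p = 0.14). ncr-2, a sterol transport gene, was higher in unc-1(vlt10) by 0.73, and the sulphatase gene sul-3 was lower by 0.72 ± 0.15 on the log2 scale. The receptor gene daf-12 differed by -0.19 ± 0.07. Of the 15 tested genes that the study took as regulated by ssu-1, 7 were called higher in unc-1(vlt10) than in nhr-1(vlt16) and 0 lower. These were 46.7% of the list, against 3.02% of all genes called higher. None was opposite, where 1.9% of all genes were. The median log2 fold change against 40Q was 1.40 in unc-1(vlt10) and 0.16 in nhr-1(vlt16). The study took that list from earlier work on ssu-1 and showed it for these libraries. Its figure legend groups the genes by their change in ssu-1 mutants and by the reverse change in unc-1(vlt10), from these same libraries. How the genes shown were chosen was not stated further, so their share and median in unc-1(vlt10) add no evidence. Genes given there as down and as up in ssu-1 mutants are pooled here.

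F-box genes, which encode substrate adaptors of ubiquitin ligases, held 16 opposite members, 6.18% of the list against 1.9% of all genes. Of 259 tested, 27 had the higher and 3 the lower level in the unc-1 mutant by the direct call. These were 11.6% of the list, against 5.51% of all genes (3.02% higher and 2.49% lower). 15 were opposite and higher in unc-1(vlt10) and 1 was the reverse, whereas 101 rose in both mutants, as 12.8% of all genes did. fbxa-24 stood at 10.3 to 13.7 CPM in 40Q, 20.6 to 27.4 CPM in unc-1(vlt10) and 4.78 to 6.94 CPM in nhr-1(vlt16), with a direct log2 difference of 1.95 ± 0.09. fbxa-33 ranged from 7.78 to 11.7 CPM in unc-1(vlt10) and from 1.38 to 2.03 CPM in nhr-1(vlt16), with 40Q at 1.84 to 4.18 CPM. Several of these genes lie side by side on chromosome III. In III:1305716-1324613 all 4 tested genes were opposite (fbxa-79, fbxa-80, fbxa-19 and fbxa-14), and in III:1274425-1287140 fbxa-30, fbxa-33 and fbxa-37 were among 5. These are related genes, and reads that match several of them may not have been assigned with certainty.

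Enzymes of detoxification were split in direction. Of 62 tested cytochrome P450 genes, 8 were called higher and 5 lower in unc-1(vlt10), and of 57 tested UDP-glucuronosyltransferases 8 and 5, where 3.02% and 2.49% of all genes were. Opposite genes made up 4.84% and 8.77% of these lists. cyp-13A5 was raised in unc-1(vlt10) (57.1 to 64.2 CPM) and lowered in nhr-1(vlt16) (10.6 to 16.1 CPM) from 22.9 to 36.5 CPM in 40Q, with no overlap. cyp-25A1 was the reverse, at 1.93 to 2.66, 7.22 to 8.44 and 5.17 to 6.94 CPM. ugt-29 and ugt-51 were higher in unc-1(vlt10) by 1.60 and 1.36 on the log2 scale, and ugt-63 and ugt-35 had direct log2 differences of -3.16 and -3.08. Both latter genes were near the limit of detection in unc-1(vlt10), at up to 0.460 and 0.205 CPM. They passed the count minimum through nhr-1(vlt16) alone and add nothing to the share of their list as evidence. gst-22, a glutathione S-transferase, was 15.5 to 17.7 CPM in unc-1(vlt10) and 5.38 to 6.09 CPM in nhr-1(vlt16), on either side of 8.72 to 13.8 CPM in 40Q.

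Among 182 tested nuclear hormone receptor genes, 11 were called higher and 6 lower in unc-1(vlt10), and 8 were opposite, 4 in each direction. These shares were 9.34% called and 4.40% opposite, against 5.51% and 1.9% of all genes. nhr-114, a receptor linked to the methionine cycle, ranged from 45.9 to 61.4 CPM in 40Q, from 19.7 to 31.6 CPM in unc-1(vlt10) and from 56 to 85.2 CPM in nhr-1(vlt16). The direct log2 difference was -1.56 ± 0.11. cbs-1, the cystathionine beta-synthase that draws on the methionine cycle, was opposite in the same direction. Its levels were 31.6 to 40.5 CPM in 40Q, 21.1 to 25.1 CPM in unc-1(vlt10) and 38.5 to 52 CPM in nhr-1(vlt16). It was the only opposite gene of 15 tested in the methionine cycle list, 6.67% against 1.9% of all genes. nhr-63 and nhr-117 went the other way, with direct log2 differences of 1.64 and 1.14.

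Among structural and secreted proteins, cuticle collagens were near the background, with 4.76% of 126 called against 5.51% of all genes and 1.59% opposite against 1.9%. Of the collagens 5 were lower and 1 higher, and col-158 and col-43 were opposite. For astacin metalloproteases 3 of 22 were called lower in unc-1(vlt10) (background 2.49%) and 0 higher. nas-3, one of them, passed the count minimum through nhr-1(vlt16) alone and adds nothing to this count as evidence. It stood at 0.0450 to 0.307 CPM in unc-1(vlt10), 3.74 to 5.55 CPM in 40Q and 6.5 to 8.07 CPM in nhr-1(vlt16). In the hedgehog-related genes 4 of 52 were lower and 0 higher (7.69% called, against 5.51% of all genes). Of these ptr-6, a patched-related membrane protein, was opposite with a direct log2 difference of -1.76. Yolk and heat shock genes held no opposite gene, where 1.9% of all genes were opposite. Of 6 vitellogenins 3 were called lower in unc-1(vlt10) and 0 higher. Of 13 inducible heat shock genes 6 were called lower and 2 higher. These were 50% and 61.5% of the lists, against 5.51% of all genes. Median log2 changes against 40Q were -0.87 and -1.05 in unc-1(vlt10) and -0.13 and -0.27 in nhr-1(vlt16).

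**Figure D4:**
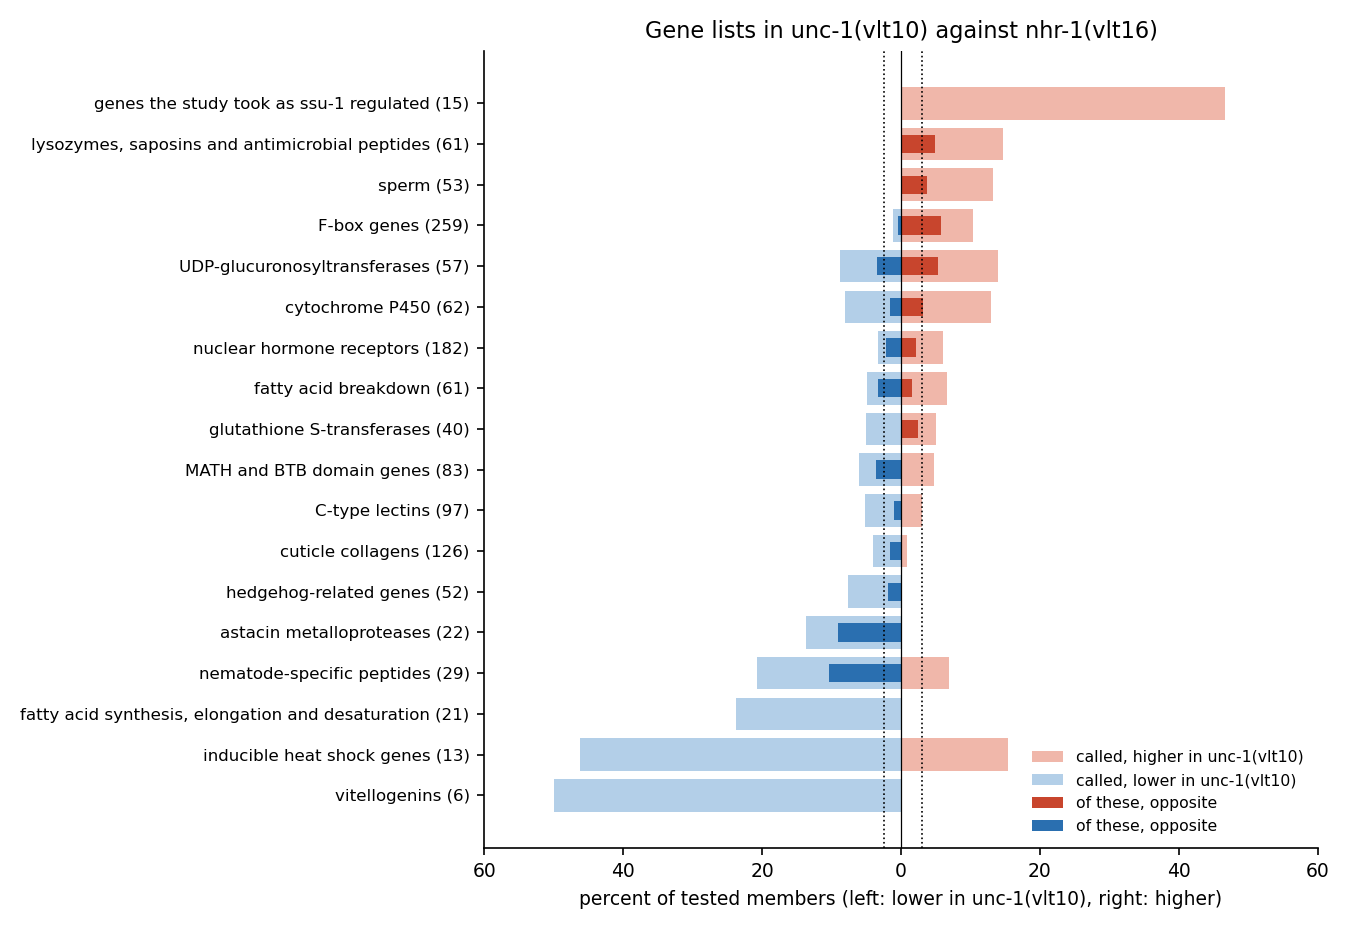
Percent of tested members of each gene list (number tested in brackets) called higher (right) or lower (left) in unc-1(vlt10) than in nhr-1(vlt16), pale bars, with the opposite genes among them as dark inner bars, for lists with at least 3 called genes. Dotted lines mark the background of 3.02% and 2.49%, and fatty acid synthesis, heat shock and vitellogenin lists have calls but no opposite gene. Of all genes tested 1.9% were opposite.

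Markers of several cell types moved with these differences. The summed level of 53 tested sperm genes was 572 to 630 CPM in unc-1(vlt10), 385 to 421 CPM in nhr-1(vlt16), 544 to 676 CPM in 40Q and 521 to 567 CPM in the double mutant, so only nhr-1(vlt16) lay apart. Of the 53, 7 were called higher in unc-1(vlt10) than in nhr-1(vlt16) (13.2%, against 3.02% of all genes) and 42 were higher by the adjusted p (background 20.7%). 2 were opposite, 3.77% of the list against 1.9% of all genes (msp-78, a major sperm protein gene, and ssp-34). The 9 neuron markers summed to 491 to 507 CPM in unc-1(vlt10) and 413 to 430 CPM in nhr-1(vlt16). They summed to 452 to 519 CPM in 40Q and 392 to 441 CPM in the double mutant. Of 80 tested neuropeptide genes 41 were higher in unc-1(vlt10) than in nhr-1(vlt16) by the adjusted p, where 20.7% of all genes were. Only nlp-30 was called, 1.25% of the list against 5.51% of all genes. The 4 intestine markers summed to 378 to 402 CPM in unc-1(vlt10), 449 to 479 CPM in nhr-1(vlt16) and 543 to 655 CPM in 40Q. Sums for body wall muscle (2966 to 3286 against 3025 to 3320 CPM), and for oocytes and eggshell (12326 to 12754 against 12242 to 13525 CPM), overlapped between the mutants. In 40Q these sums were 3756 to 4402 CPM and 11135 to 12169 CPM. Both single mutants thus lay below 40Q for muscle and above it for oocytes and eggshell. No tested marker was at 0 throughout a genotype. These were whole animals, in which fewer cells of a type and less RNA per cell cannot be told apart, and the part of the marker differences in the gene results was not tested.

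The double mutant was not used to choose the opposite genes, and at most of them it stood with nhr-1(vlt16). It was closer to nhr-1(vlt16) than to unc-1(vlt10) at 95.2% of them and at 63.8% of all genes. The share was 94.9% among called genes where unc-1(vlt10) alone differed, 93.3% where both moved the same way and 50.5% where nhr-1(vlt16) alone differed. This closeness was thus not particular to the opposite genes. On a scale where the mean log2 CPM of nhr-1(vlt16) is 0 and that of unc-1(vlt10) is 1, 40Q had a median of 0.364 over the 271 genes and the double mutant 0.0808. Over the called genes where unc-1(vlt10) alone differed the double mutant had 0.0468. The double mutant lay on the nhr-1(vlt16) side of 40Q at 247 and on the unc-1(vlt10) side at 24. Over the 332 called genes where unc-1(vlt10) alone differed these were 160 and 172, with 40Q at a median of 0.031. At the opposite genes the double mutant differed from 40Q by the adjusted p at 195, where 33.5% of all genes did. Of these, 188 lay toward nhr-1(vlt16) and 7 toward unc-1(vlt10). Over all genes tested 4416 of 4788 such differences lay toward nhr-1(vlt16), so this lean was not particular to the opposite genes. Toward unc-1(vlt10) lay 3533 of the 4788, as genes on the same side of 40Q in both single mutants count for both. The double mutant differed from unc-1(vlt10) at 269 of 271 (44.8% of all genes) and from nhr-1(vlt16) at 70, or 25.8%, where 19.6% of all genes did. The median was similar for genes higher (0.0802) and lower (0.0823) in unc-1(vlt10). At lys-3 the double mutant ranged from 0.480 to 1.35 CPM and differed from nhr-1(vlt16) by -0.01 with a 95% interval from -0.58 to 0.57, and at nhr-3 it ranged from 26.6 to 29.2 CPM with an interval from -0.14 to 0.05.

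**Figure D5:**
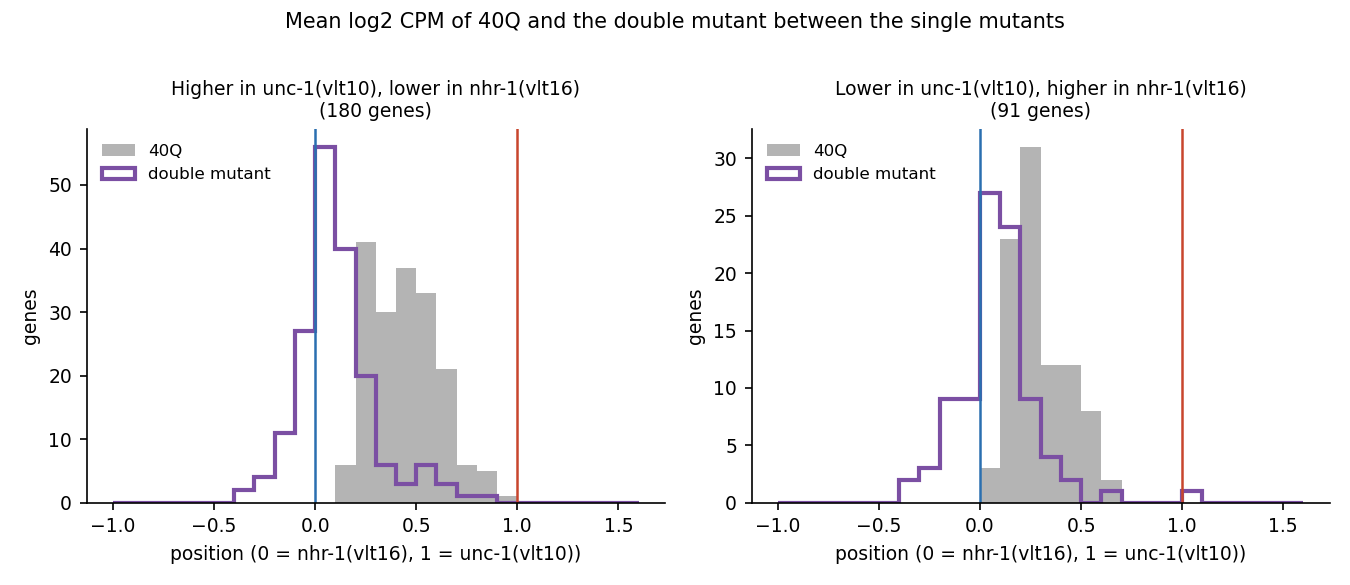
Number of opposite genes by the position of the mean log2 CPM of 40Q (grey) and of the double mutant (purple line) on a scale from nhr-1(vlt16) at 0 to unc-1(vlt10) at 1, for 180 genes higher (left) and 91 lower (right) in unc-1(vlt10). 40Q lies between by the rule, with medians of 0.434 and 0.277, and the double mutant is centred near nhr-1(vlt16), with medians of 0.0802 and 0.0823.

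A few opposite genes did not follow nhr-1(vlt16) in the double mutant. At 13 of the 271 the double mutant was nearer to unc-1(vlt10). nhx-6 had the largest difference from nhr-1(vlt16) of the 13, at 0.981 to 1.81 CPM in the double mutant against 14 to 17.5 CPM in nhr-1(vlt16), a log2 difference of -3.44 ± 0.11. dod-3 had means of 7.25, 3.91, 9.07 and 3.82 CPM in 40Q, in unc-1(vlt10), in nhr-1(vlt16) and in the double mutant. Among the other 11, all higher in unc-1(vlt10), msp-78, ssp-34 and spch-3 carry the names of sperm genes. Their double mutant means of 8.90, 2.42 and 6.27 CPM were close to those of 40Q (9.04, 2.47 and 6.40 CPM) and above those of nhr-1(vlt16) (4.99, 1.51 and 3.96 CPM). Of the genes called in the direct comparison that differed from 40Q in nhr-1(vlt16) alone, 48 of 95 differed between the double mutant and nhr-1(vlt16) (50.5%), against 43 of 332 (13%) where unc-1(vlt10) alone differed. The 2 shares were not tested against each other. The nhr-1(vlt16) libraries that set the classes also enter this contrast, so the shares are no evidence of a difference between the classes. Outside the opposite genes, F26A1.8 stood between the single mutants in the double mutant, at 19.7 to 28.4 CPM.

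The opposite genes were unevenly placed on the chromosomes. Chromosome V held 96 of the 271 (35.4%) and 19.1% of the genes tested, and chromosome I held 6.64% of the opposite and 16.3% of the genes tested. On chromosome V 9.80% of the tested genes were called in the direct comparison, so all called genes, and not the opposite ones alone, were more frequent there. Chromosome X held 19 of the 91 genes lower in unc-1(vlt10) (20.9%) and 14 of the 180 higher (7.78%), with 14.3% of the genes tested. In all it held 12.2% of the opposite genes, and 5.81% of its tested genes were called, against 5.51% of all genes. Of the 180, 45 (25%) lay within 10 kb of another such gene, and the value for the 252 other genes called higher in unc-1(vlt10) was 25.4%. Within 1 Mb of unc-1, 10 of 198 tested genes were called and 2 were opposite, where 5.51% and 1.9% of all genes were.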

How the data were processed

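The files analysed hold gene counts that the authors deposited for 24 RNA-seq libraries. Per the submitters' processing notes, reads were aligned with HISAT2 2.0.5 to WBcel235 and counted with HTSeq 0.6.1. Strand was not stated, so reads of overlapping or antisense genes cannot be told apart. The FPKM values and the authors' own fold changes and p-values were not used.

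Counts were tested with edgeR 4.0.16 in R 4.3.3 (TMM, quasi-likelihood, 1 fit of all 24 libraries), after keeping genes with 10 or more counts in at least 6 of the 12 single-mutant libraries. P-values measure the spread between samples of 1 strain. Intervals are 1.96 SE on the log2 scale. Alternatives were DESeq2 1.42.0, other scalings and filters, a fit of the compared genotypes alone, a replicate block and leaving out each library. Positions come from Ensembl release 115.

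Genes were named by a rule: the 8 opposite genes of each direction with the largest smaller change and no overlap, the 4 largest direct differences of each direction without overlap, both only where the log2 CPM averaged 1 or more, and up to 4 opposite genes per list. Any member of the lists of fatty acid synthesis, of regulators of fat metabolism and of steroid metabolism could also be named, opposite or not. F56A4.3, C54F6.15, dod-3, spch-3, msp-78, ssp-34 and genes given as neighbours or as just inside or outside a threshold were chosen after their values were seen. Members and lists were chosen with earlier results of these data known. Promoter motifs were not analysed here.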

Additional observations from a re-analysis of the deposited data

Results flagged for a closer look

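For the named genes, 232 groups of 6 libraries were examined for a single library far from the others, and 14 had one, where chance gives about 1 in 20. Replicate 5 of nhr-1(vlt16) was the library at 4 genes: nhr-1 itself stood at 11.33 CPM there, fbxa-33 at 2.031 CPM, cbs-1 at 38.5 CPM and math-14 at 6.229 CPM. Replicate 5 of the double mutant stood apart at far-7 (14.68 CPM), fbxa-30 (0.8792 CPM) and irg-1 (2.232 CPM). Replicate 1 of nhr-1(vlt16) was high at nspe-2 (9.603 CPM) and low at Y58A7A.5 (4.826 CPM). In unc-1(vlt10), replicate 1 was high at col-158 (1.687 CPM), replicate 5 low at nhr-3 (8.324 CPM), replicate 6 low at acox-1.5 (21.63 CPM) and replicate 2 high at clec-165 (0.5135 CPM). Replicate 3 of the double mutant was low at cyp-25A1 (5.052 CPM). At the opposite genes among these, each single-mutant library still lay on its own side of every library of the other single mutant.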

How the results depend on the processing

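The direct comparison called 788 genes, and 786 to 1170 under the alternatives that left no library out. The upper value came without a filter on low counts, which tested more genes and also gave 1325 calls for unc-1(vlt10) and 645 for nhr-1(vlt16) against 40Q. Without the 2-fold threshold these comparisons gave 5666, 7077 and 6246 genes, and opposite genes by either fold rule numbered 624. Leaving out 1 library at a time gave 766 to 823 calls in the direct comparison, 771 to 867 for unc-1(vlt10) and 285 to 383 for nhr-1(vlt16) against 40Q, 552 to 621 opposite genes by adjusted p, 247 to 276 over 2-fold apart and 16 to 19 over 2-fold each. All 271 kept their signs in each of 26 settings, and 201 were called opposite in every one. Of the named genes, btb-9, col-43, cpt-4, cyp-34A4, fbxa-30, irg-1, math-14, math-45, nhx-6, nlp-30 and ugt-35 lost the opposite call in at least 1 setting. Replicate numbers did not pair the libraries: same-numbered libraries of the single mutants correlated between -0.119 and 0.236, and the fit with a replicate block called 786 genes, 267 of them opposite over 2-fold apart. Levels under about 0.3 CPM rest on few counts per library, and at this depth cannot be ordered among libraries.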

Other observations

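F56A4.3 (WBcel235 V:2453414-2456147) was the only opposite gene without a count in a whole genotype, a feature chosen after its values were seen. Its level was 4.67 to 8.05 CPM in 40Q and 9.73 to 12.598 CPM in unc-1(vlt10), and all 6 nhr-1(vlt16) and all 6 double mutant libraries held 0 counts. With the floor set at 3 counts summed over a genotype, it was at least 476-fold higher in unc-1(vlt10) and at least 281-fold higher in 40Q than in nhr-1(vlt16). Its neighbour F56A4.2 (V:2459637-2460893) was also lower in nhr-1(vlt16), at 5.91 to 8.06 CPM against 17.2 to 31.4 CPM in 40Q, and stood at 6.49 to 11.4 CPM in the double mutant, but its rise in unc-1(vlt10) did not pass (log2 0.24, edgeR adjusted p = 0.069). F56A4.3 and F56A4.2 thus had low counts in both strains that carry nhr-1(vlt16), which were tested as 1 strain each. C54F6.15, not opposite, was near 0 outside unc-1(vlt10): it held 100 counts over the 6 unc-1(vlt10) libraries, 5 in 40Q, 1 in the double mutant and 0 in nhr-1(vlt16).

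Cytosolic ribosomal protein genes held 0 calls among 80 in the direct comparison, where 5.51% of all genes were called. Their summed level was 83315 to 87509 CPM in unc-1(vlt10) and 77242 to 80568 CPM in nhr-1(vlt16), without overlap, and 83145 to 90845 CPM in 40Q. Histone genes summed to 750 to 784 CPM in unc-1(vlt10) and 661 to 708 CPM in nhr-1(vlt16), with 666 to 695 CPM in 40Q. The sum and the median differed in sign, since the median log2 fold change of the 29 histone genes was -0.12 in the direct comparison, with 6 higher and 7 lower in unc-1(vlt10) by the adjusted p and 0 called. Against 40Q the median was 0.33 in nhr-1(vlt16).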
